A study of Rattus norvegicus with 8 samples.

Results

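Chemokines are small secreted proteins that guide leukocytes through tissue, and 9 of their genes were followed here in the liver of diabetic rats. The 9 genes were Cxcl1, Cxcl9, Cxcl10, Cxcl11, Cxcl12, Cxcl16, Ccl2, Ccl4 and Ccl5, taken from the CXC and CC families by name. Every probe set whose platform annotation gives 1 of these symbols and no other was a member, which made 12 of the 31042 probe sets on the array that are not manufacturer's controls, and 9 of its 14217 named genes. Cxcl12 had 3 sets, Cxcl9 had 2, and the other 7 genes had 1 each.

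The livers came from male Goto-Kakizaki (GK) rats, an inbred lean strain with type 2 diabetes, that were 18 weeks old. The persimmon peel group (n = 4) had eaten the purified rodent diet AIN-93G with persimmon peel extract for 12 weeks, and the control group (n = 4) AIN-93G alone. Both groups carry the same diabetic background, no non-diabetic strain was compared, and the amount of extract in the diet is not given in the sources used here. Each diet had 4 rats and 4 numbered 1-colour Affymetrix arrays of total liver RNA, and each value is a MAS5 signal on a linear scale as deposited, with array medians between 33.2 and 39.2 units.

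Chemokines are sorted into families by the spacing of conserved cysteines and act through receptors on leukocytes. Cxcl9, Cxcl10 and Cxcl11 are induced by interferon gamma and bind Cxcr3 on T and NK cells, and Ccl4 and Ccl5 draw T cells and monocytes. Cxcl1 draws neutrophils through Cxcr2, Ccl2 draws monocytes through Ccr2, Cxcl12 holds haematopoietic cells in place through Cxcr4, and Cxcl16 is a membrane-bound ligand of Cxcr6. In liver, Kupffer cells, sinusoidal endothelium, stellate cells and hepatocytes can all produce chemokines during inflammation.

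Cxcl11, Cxcl10 and Cxcl9 lie next to each other in that order in the RefSeq gene table of assembly GRCr8. The 250 bases before the annotated start are printed for these neighbours, because Cxcl9 was lower on the persimmon peel diet and Cxcl11 did not pass the test, and for Cxcl12, the other gene with a called set. The sequences are RefSeq's, GRCr8, plus strand for all 4 genes, at chr14:16006916-16007165 for Cxcl9, chr14:15988816-15989065 for Cxcl10, chr14:15973478-15973727 for Cxcl11 and chr4:152060531-152060780 for Cxcl12. Entries for 6 of the 9 genes were found, and Ccl2, Ccl4 and Ccl5 were not matched. Capitals mark matches on either strand to the interferon-stimulated response element (ISRE, here GAAA, NN and GAAA), the gamma-activated sequence (GAS, here TTC, NNN and GAA) or the NF-kB pattern (here GGGA, NNNN and CC), where N is any base.
Cxcl9: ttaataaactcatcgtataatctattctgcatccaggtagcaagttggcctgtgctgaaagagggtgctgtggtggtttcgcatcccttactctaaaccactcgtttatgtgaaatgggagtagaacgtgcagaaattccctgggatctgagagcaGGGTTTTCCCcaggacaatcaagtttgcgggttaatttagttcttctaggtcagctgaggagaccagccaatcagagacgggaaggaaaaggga
Cxcl10: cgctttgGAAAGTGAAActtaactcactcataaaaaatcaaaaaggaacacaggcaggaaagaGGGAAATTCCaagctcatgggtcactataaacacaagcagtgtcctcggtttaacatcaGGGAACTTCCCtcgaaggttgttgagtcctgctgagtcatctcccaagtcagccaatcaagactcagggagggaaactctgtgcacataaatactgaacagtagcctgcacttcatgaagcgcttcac
Cxcl11: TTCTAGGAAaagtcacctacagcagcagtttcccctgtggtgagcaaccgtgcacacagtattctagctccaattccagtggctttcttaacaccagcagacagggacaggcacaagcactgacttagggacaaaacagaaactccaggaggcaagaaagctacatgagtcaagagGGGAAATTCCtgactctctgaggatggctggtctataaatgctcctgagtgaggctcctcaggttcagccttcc
Cxcl12: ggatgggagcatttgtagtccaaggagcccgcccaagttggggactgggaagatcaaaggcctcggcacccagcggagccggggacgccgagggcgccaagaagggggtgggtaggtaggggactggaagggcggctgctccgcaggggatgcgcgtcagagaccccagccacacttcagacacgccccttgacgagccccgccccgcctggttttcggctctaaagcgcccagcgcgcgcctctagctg

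The ISRE letters were found in the Cxcl10 window, from 243 to 234 bases before the start, and in 3.41% of 33469 windows of the same length. The GAS letters stood at the far end of the Cxcl11 window, from 250 to 242 bases before the start, and in 7.67% of all windows. The NF-kB letters were found in the windows of Cxcl9, Cxcl10 and Cxcl11 and in 16.4% of all windows, and in Cxcl10 matches on opposite strands overlapped. The Cxcl12 window held no match to any of the 3 patterns. Of the windows not printed, that of Cxcl1 held the NF-kB letters and that of Cxcl16 held no match. These are matches of letters in short windows, and no binding was measured.

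Among the chemokine sets, 1 of the 2 Cxcl9 sets and 1 of the 3 Cxcl12 sets were lower in livers of the persimmon peel diet, and none was called higher. The test was limma with Benjamini-Hochberg adjustment over all 15521 probe sets in the brighter 50% of the array, with a call at an adjusted p under 0.05. Of the 12 member sets, 11 entered the test, and the Ccl2 set was too dim. Calls in either direction were made in 4.95% of all tested sets, so that the 2 lower calls stand against lower calls in 4.53% and the 0 higher calls against 0.425%. With quantile normalization the array had 597 lower and 271 higher calls, in place of 703 and 66. At an unadjusted p under 0.05 there were 5 of the 11 member sets, against 19.6% of all tested sets. The 11 sets had a median log2 fold change of -0.06, and all tested sets one of -0.0071. In whole-liver RNA, fewer cells of a type and less RNA per cell cannot be told apart.

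**Figure D1:**
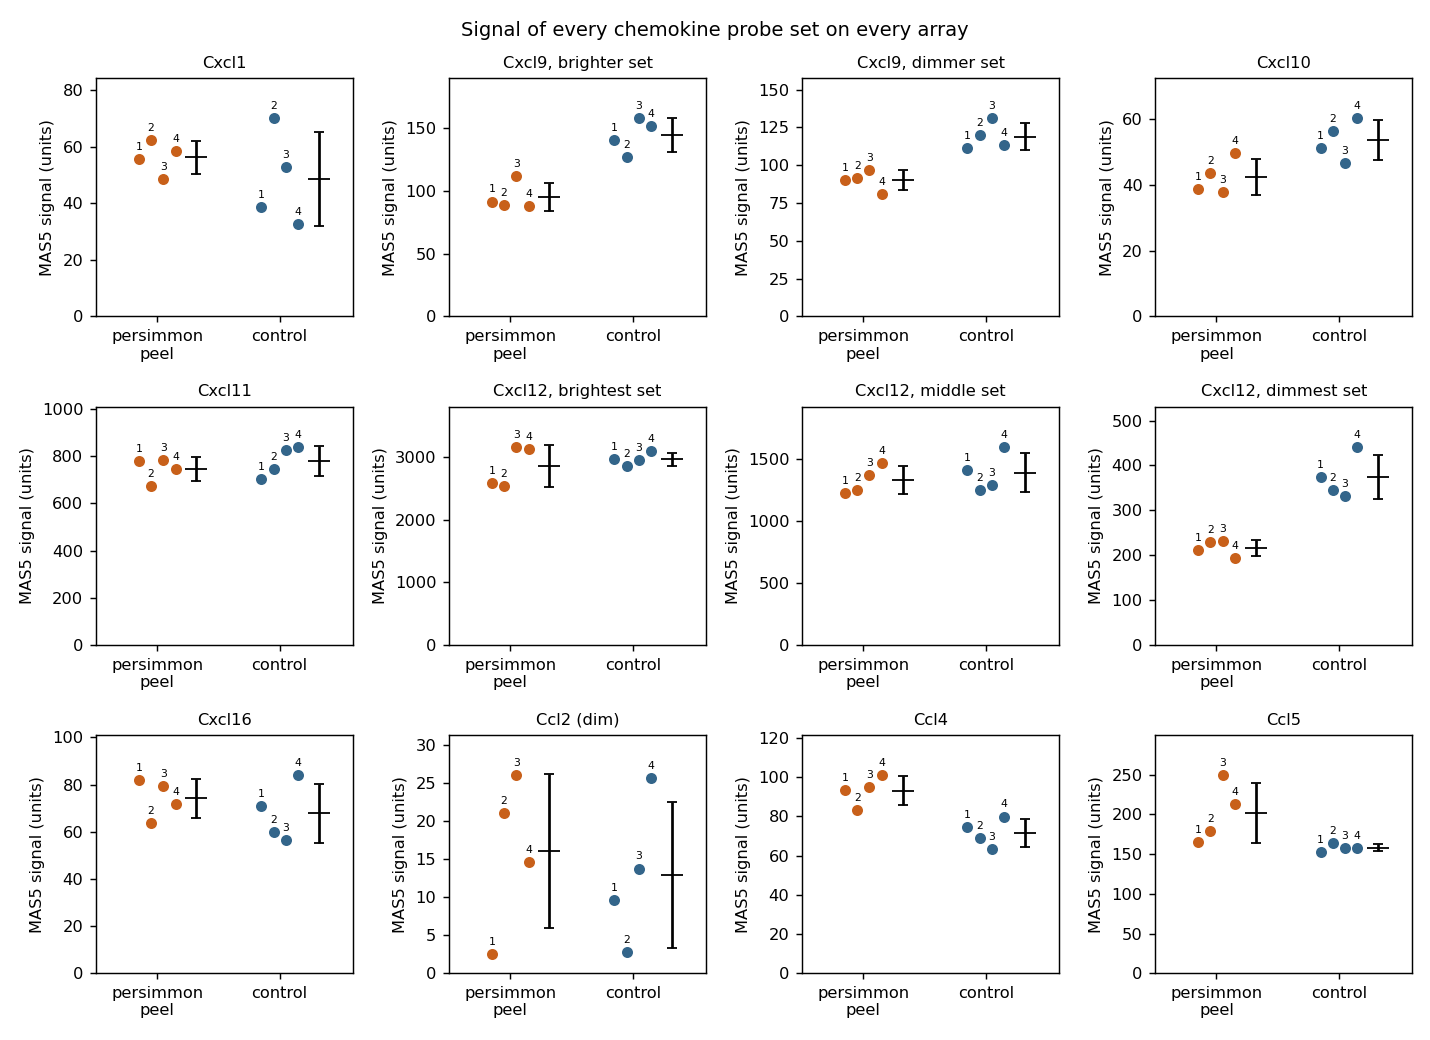
MAS5 signal (vertical axis, linear from 0) of each of the 12 chemokine probe sets in livers of the persimmon peel diet (orange) and the control diet (blue), 1 numbered point per array, with the mean ± SD of 4 beside the points. Both Cxcl9 sets and the dimmest Cxcl12 set lie lower in all 4 persimmon peel livers than in any control liver, and Ccl4 and Ccl5 lie higher.

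Cxcl9, the interferon gamma-induced attractant of activated T cells, was lower in its brighter set. The signals were 91.4, 88.7, 111 and 87.8 in persimmon peel livers 1 to 4, against 140, 127, 158 and 151 in control livers 1 to 4. Every persimmon peel liver lay below every control liver, with persimmon peel liver 3 above the other 3 of its diet. The means were 94.8 ± 11.1 on the persimmon peel diet and 144 ± 13.5 on the control diet (SD, n = 4 each), a log2 fold change of -0.61 (SE 0.13, limma adjusted p = 0.0147), or 1.52-fold lower.

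The dimmer Cxcl9 set had the same direction and did not pass. It gave 90.6, 91.8, 96.8 and 81.3 units on the persimmon peel diet, against 111, 120, 131 and 113 units on the control diet. The diets again did not overlap. The log2 fold change was -0.40 (SE 0.12, limma adjusted p = 0.0755), with a 95% interval from -0.66 to -0.14. The brighter set lost its call without persimmon peel replicate 1 (-0.59, adjusted p = 0.051), without control replicate 4 (-0.58, adjusted p = 0.059) and without persimmon peel arrays 1 and 3 together (-0.70, adjusted p = 0.058), and it kept its direction in each.

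Cxcl10, which shares the receptor Cxcr3 with Cxcl9, gave low values, above the lowest mean signal that was tested, 34.4 units. Its signals were 38.7, 43.5, 37.8 and 49.8 in persimmon peel livers, against 51.3, 56.5, 46.6 and 60.3 in control livers. The diets overlapped only through persimmon peel liver 4 and control liver 3. The log2 fold change of -0.34 (SE 0.17, limma adjusted p = 0.291) did not pass, with a 95% interval from -0.71 to 0.03.

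Cxcl11, the remaining Cxcr3 ligand, had 779.5, 673, 786 and 747 units on the persimmon peel diet, against 705, 748, 827 and 841 units on the control diet. These groups overlapped widely. Its log2 fold change was -0.06 (SE 0.09, limma adjusted p = 0.756), with a 95% interval from -0.26 to 0.14. In this fit the Cxcl11 interval thus excludes a fall as large as the -0.61 of the brighter Cxcl9 set. The difference between the 2 genes was not itself tested. With a beta-actin ratio of RNA quality, given below, as a covariate, the Cxcl11 value was -0.33 (SE 0.23).

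Cxcl12, the constitutive ligand of Cxcr4 and Ackr3, differed between its 3 probe sets. The dimmest set had signals of 212, 229, 231 and 194 in persimmon peel livers, against 374, 344, 333 and 442 in control livers. The highest persimmon peel liver (231 units) lay below the lowest control liver (333 units). The log2 fold change was -0.78 (SE 0.12, limma adjusted p = 0.00274), or 1.72-fold lower.

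The brightest Cxcl12 set had 2590, 2546, 3173 and 3128 units on the persimmon peel diet, against 2967, 2861, 2952 and 3109 units on the control diet. Its persimmon peel livers lay on both sides of the control livers, and its log2 fold change was -0.06 (SE 0.08, limma adjusted p = 0.723). The middle set also overlapped, at 1330 ± 113 units on the persimmon peel diet and 1390 ± 158 units on the control diet (SD, n = 4 each), with a log2 fold change of -0.06 (SE 0.10, limma adjusted p = 0.77). The 95% intervals of these sets ran from -0.24 to 0.12 and from -0.26 to 0.14, so that neither reached the value of the dimmest set.

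The gap between the Cxcl12 sets was compared within each array, a comparison added after the values were seen. The dimmest minus the brightest set was -3.72 ± 0.23 on the persimmon peel diet and -3.00 ± 0.14 on the control diet on the log2 scale (SD, n = 4 each). The diets did not overlap, with p = 0.0286 in a two-sided exact permutation test, the lowest value possible with 4 livers per diet, and 0.0571 adjusted over 4 such set differences. The middle minus the brightest set was -1.10 ± 0.08 on the persimmon peel diet and -1.10 ± 0.11 on the control diet (SD, n = 4 each, exact permutation test, two-sided p = 1, adjusted p = 1). For Cxcl9 the dimmer minus the brighter set was -0.07 ± 0.11 on the persimmon peel diet and -0.27 ± 0.14 on the control diet (SD, n = 4 each, exact permutation test, two-sided p = 0.0857, adjusted p = 0.114). Over the whole array, lower calls were made in 13.8% of 2981 sets that were not the brightest of their gene, and in 2.31% of 2295 sets that were. Which part of the transcript each set reads was not analysed here.

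**Figure D2:**
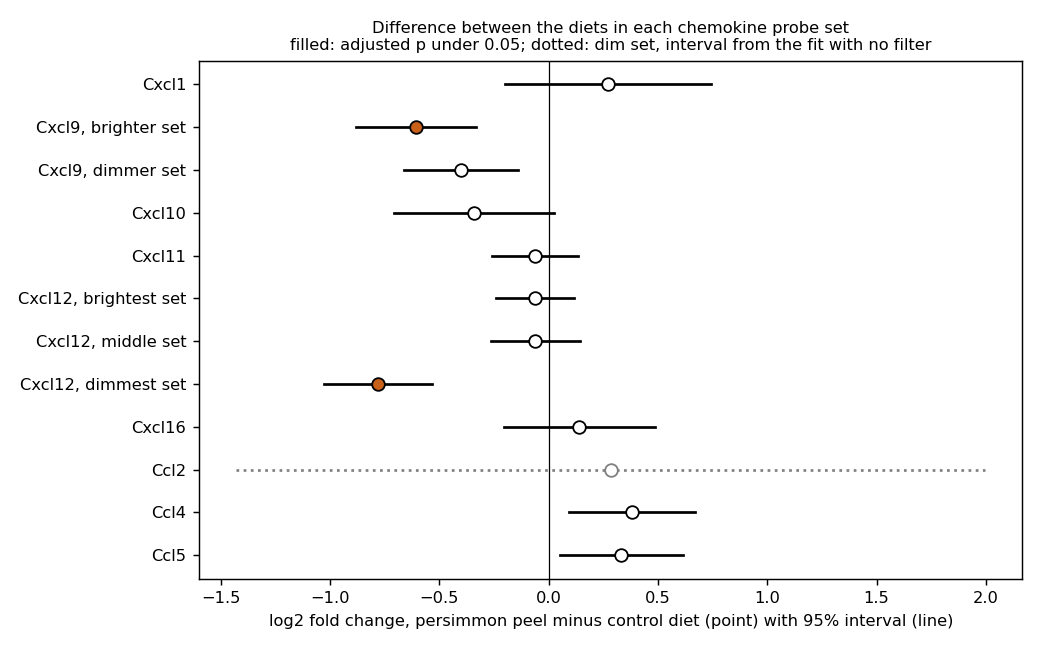
Log2 fold change of each chemokine probe set, persimmon peel minus control diet (horizontal axis), with its 95% interval. Filled points passed at an adjusted p under 0.05, namely the brighter Cxcl9 set (-0.61) and the dimmest Cxcl12 set (-0.78), and the dotted line is the dim Ccl2 set, whose interval comes from the fit with no filter.

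A control ratio of RNA quality differed between the diets together with these sets. On the log2 scale, the middle beta-actin control set minus the 3' set was -1.18, -0.92, -1.09 and -1.06 in persimmon peel livers 1 to 4, against -0.76, -0.77, -0.75 and -0.78 in control livers 1 to 4. The diets did not overlap in it (exact permutation test, two-sided p = 0.0286, and 0.0286 adjusted over 2 beta-actin ratios). Earlier results of these data had already shown this ratio to differ with diet, so that its p-value is a description and not a fresh test. The 5' set minus the 3' set was -1.97 ± 0.22 on the persimmon peel diet and -1.68 ± 0.12 on the control diet (SD, n = 4 each, exact permutation test, two-sided p = 0.0286, adjusted p = 0.0286), with persimmon peel liver 1 and control liver 1 both at -1.82. With the middle to 3' ratio as a covariate, which overlaps almost fully with diet, the dimmest Cxcl12 set had a log2 difference of -0.75 (SE 0.30, limma adjusted p = 1.00) and the brighter Cxcl9 set one of -0.72 (SE 0.33, limma adjusted p = 1.00), and 0 sets on the array were called. Persimmon peel arrays 1 and 3 had the lowest middle to 3' ratios. Without them the dimmest Cxcl12 set changed by -0.82 (SE 0.14, limma adjusted p = 0.0355). In this ratio, persimmon peel livers 2 and 4 (-0.92 and -1.06) still lay below every control liver, so the fit kept that difference. Diet and this ratio cannot be told apart in these arrays.

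**Figure D3:**
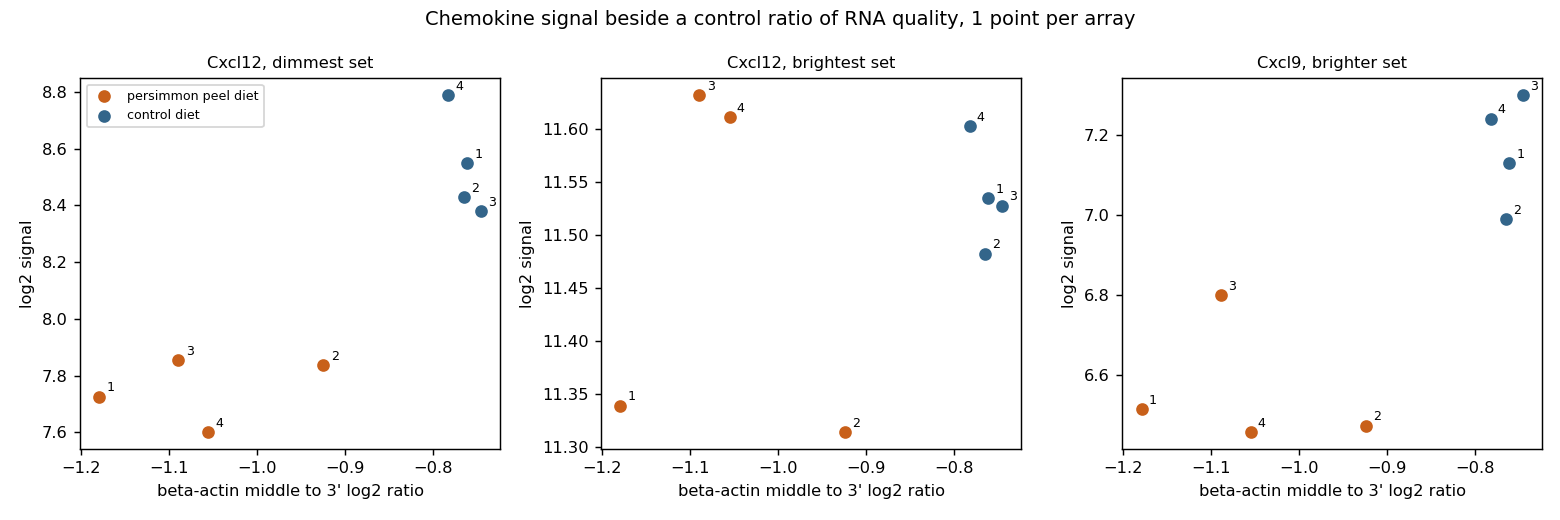
Log2 signal of the dimmest and brightest Cxcl12 sets and of the brighter Cxcl9 set (vertical axes, each with its own range) against the beta-actin middle to 3' log2 ratio (horizontal axis), 1 numbered point per array. The 4 persimmon peel arrays (orange) have ratios from -1.18 to -0.92 and the 4 control arrays (blue) from -0.78 to -0.75, and only the brightest Cxcl12 set overlaps between the diets.

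Ccl4 and Ccl5, CC chemokines made by macrophages and by T and NK cells, had higher values in persimmon peel livers without passing the test. Ccl4 gave 93.3, 83.3, 94.8 and 101 units on the persimmon peel diet, against 74.4, 68.8, 63.1 and 79.9 units on the control diet. Its log2 fold change was 0.38 (SE 0.14, limma adjusted p = 0.125), with a 95% interval from 0.09 to 0.67.

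Ccl5 gave 165, 179, 249 and 212 units on the persimmon peel diet, against 153, 164, 157 and 158 units on the control diet. The control livers kept within a narrow range (158 ± 4.56, SD, n = 4), the persimmon peel livers were spread (202 ± 37.5, SD, n = 4), and the closest livers of the 2 diets were 165 and 164 units. The log2 fold change of 0.33 (SE 0.13, limma adjusted p = 0.168) became 0.22 without persimmon peel replicate 3. In all, 3 of the 11 member sets lay lower and 2 higher without overlap between the diets, against 10.0% and 2.87% of all tested sets.

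Cxcl1, the neutrophil attractant, had 55.6, 62.4, 48.8 and 58.5 units on the persimmon peel diet, against 38.7, 70.2, 52.8 and 32.6 units on the control diet. The control livers held both the highest and the lowest value, and the log2 fold change of 0.27 (SE 0.22, limma adjusted p = 0.534) did not pass. It was 0.10 without control replicate 4 and 0.47 without control replicate 2. Cxcl16, which also serves as a scavenger receptor for oxidised lipoprotein, had 81.9, 63.6, 79.5 and 71.6 units on the persimmon peel diet, against 70.8, 59.9, 56.3 and 84.0 units on the control diet. Its groups overlapped, with a log2 fold change of 0.14 (SE 0.16, limma adjusted p = 0.677) that ran from 0.057 without control replicate 3 to 0.25 without control replicate 4.

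Ccl2, the monocyte attractant, was dim on every array. It gave 2.56, 21.0, 26.1 and 14.7 units on the persimmon peel diet, against 9.61, 2.76, 13.8 and 25.7 units on the control diet, each below the 34.4 units of the filter. With no filter its log2 fold change was 0.28 (SE 0.79, limma adjusted p = 0.919), and a 95% interval from -1.43 to 2.00 leaves its direction unknown. No detection calls were used, so that a dim set shows a low signal and not an absent transcript.

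**Figure D4:**
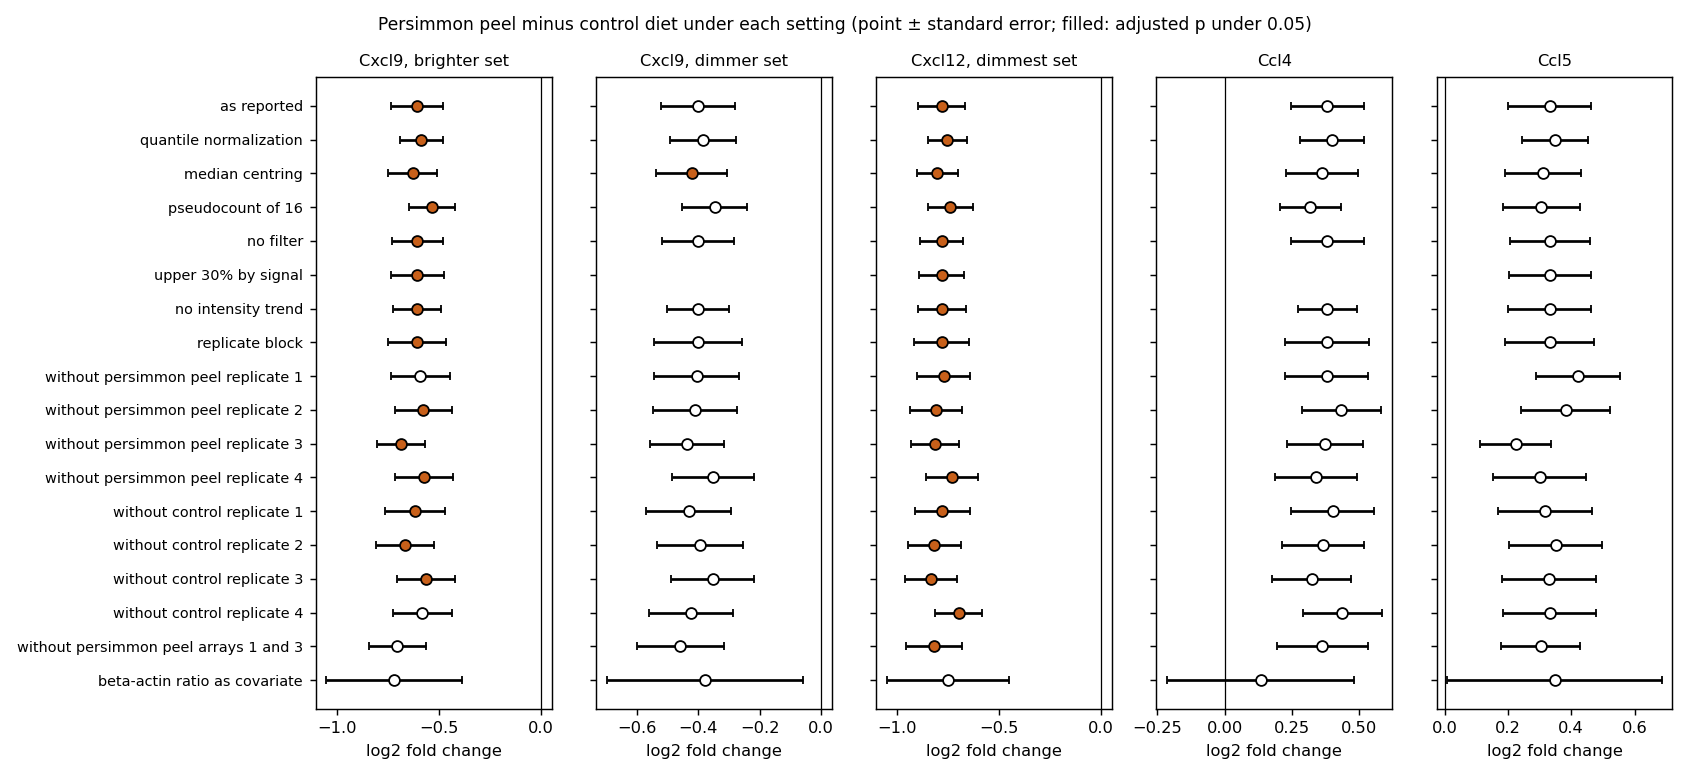
Log2 fold change ± standard error (horizontal axes, each with its own range) of 5 chemokine probe sets, persimmon peel minus control diet, as reported and under each of 17 other settings down the page. Filled points passed at an adjusted p under 0.05: the dimmest Cxcl12 set in 16 of 17 settings, the brighter Cxcl9 set in 13 of 17, the dimmer Cxcl9 set in 1 of 16, and Ccl4 and Ccl5 in none.

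None of the few tested sets of other chemokine ligands was called. Of 27 listed genes, 22 were on the array and 6 had a tested set, of which 0 were called (limma, adjusted p under 0.05, and 0 at an unadjusted p under 0.05). Of all tested sets, 4.95% were called and 19.6% had an unadjusted p under 0.05. The smallest p belonged to Cxcl14 (log2 fold change 0.34, SE 0.22, adjusted p = 0.405) and Pf4 (0.14, SE 0.15, adjusted p = 0.646). Ccl6 and Ccl9, found in rodents and strong in these livers, had log2 fold changes of -0.03 and 0.02.

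Of 23 chemokine receptor genes, 17 were on the array, 4 had a tested set and 1 was called higher, against higher calls in 0.425% of all tested sets. That gene was Cxcr5, the B cell receptor for Cxcl13, with 109, 133, 171 and 117 units on the persimmon peel diet, against 91.4, 92.0, 60.0 and 91.1 units on the control diet (log2 fold change 0.66, SE 0.17, limma adjusted p = 0.0412). The call held in 0 of the 8 fits that left out 1 array, with log2 fold changes from 0.51 to 0.75, and the second set of Cxcr5 was dim (-0.01). It was also lost with no filter (adjusted p = 0.101). Cxcr3, the receptor of Cxcl9, gave a log2 difference of 0.28 (SE 0.19, adjusted p = 0.457), and Cxcr4, the receptor of Cxcl12, one of 0.12 (SE 0.22, adjusted p = 0.799), with 0.87 and -0.27 in its 2 dim sets. The tested sets of both lay just above the filter, and the median over the 4 tested receptor sets was 0.20.

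Among 11 genes that cut, shed or bind chemokines, 8 had tested sets, and 1 of their 12 sets was called, against 4.95% of all tested sets. Sdc2, a heparan sulfate proteoglycan that binds chemokines at the cell surface, was lower in 1 of 3 sets (-0.29, SE 0.07, limma adjusted p = 0.0325), with -0.21 and -0.07 in the others. The called set was not the brightest of its gene, a kind in which 13.8% of sets were called lower. Its call held in 5 of all 17 other settings and was lost, for example, with no filter (limma adjusted p = 0.110). With 1 array left out the call held only without persimmon peel replicate 2, with log2 fold changes from -0.32 to -0.24, and with the beta-actin ratio as covariate the value was -0.10. The median of this list was -0.06, with 3 positive and 9 negative sets.

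In the signal chain of interferon and NF-kB that drives chemokine genes, 0 of 36 tested sets were higher and 3 were lower, against higher calls in 0.425% and lower calls in 4.53% of all tested sets. All 3 were sets that are not the brightest of their gene, a kind in which 13.8% of sets were called lower. They were sets of the kinase gene Jak1 (-0.81, SE 0.13, limma adjusted p = 0.00372), of the interleukin 1 receptor gene Il1r1 (-1.09, SE 0.25, adjusted p = 0.0217) and 1 of the 5 tested sets of the interferon receptor gene Ifnar1 (-0.65, SE 0.15, adjusted p = 0.0268). The brightest sets of the same genes gave -0.12 for Jak1, -0.04 for Il1r1 and -0.32 for Ifnar1, none past the test. A dim set of Il1r1 gave -0.85, without overlap between the diets, and a dim set of Ifnar1 gave 0.13, with overlap. With 1 array left out the Jak1 call held in all 8 fits (-0.91 to -0.72), the Il1r1 call was lost without control replicate 1, 3 or 4 (-1.26 to -0.87 over the 8 fits), and the Ifnar1 call held only without persimmon peel replicate 2, persimmon peel replicate 3 or control replicate 2 (-0.72 to -0.58). With no filter Il1r1 and Ifnar1 did not pass (adjusted p = 0.068 for each), and with the beta-actin ratio as covariate Jak1 gave -0.20, Il1r1 -0.99 and Ifnar1 -0.43 (limma adjusted p = 1.00 for each). The median of the list was 0.05, with 21 positive and 15 negative sets.

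Of 33 tested sets of interferon-induced genes, a list that includes Cxcl9, Cxcl10 and Cxcl11, 0 were higher and 3 were lower, against 0.425% higher and 4.53% lower of all tested sets. Beside the Cxcl9 set these were Ifih1, a sensor of viral RNA (-0.79, SE 0.14, limma adjusted p = 0.00658), and 1 of 2 sets of the GTPase gene Igtp (-0.64, SE 0.17, adjusted p = 0.0477), whose brighter set gave 0.14. The diets overlapped in the called Igtp set, and its call held in 3 of all 17 other settings. It was lost with quantile normalization (limma adjusted p = 0.077) and with no filter (limma adjusted p = 0.109), among others. With 1 array left out the Igtp call held only without persimmon peel replicate 2 (-0.82 to -0.54 over the 8 fits), and the Ifih1 call held in all 8. Ifih1 lost its call without persimmon peel arrays 1 and 3 (-0.68, adjusted p = 0.081), and with the beta-actin ratio as covariate it gave -0.50 and Igtp 0.079 (limma adjusted p = 1.00 for each). The list's median was -0.01, with 16 positive and 17 negative sets.

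**Figure D5:**
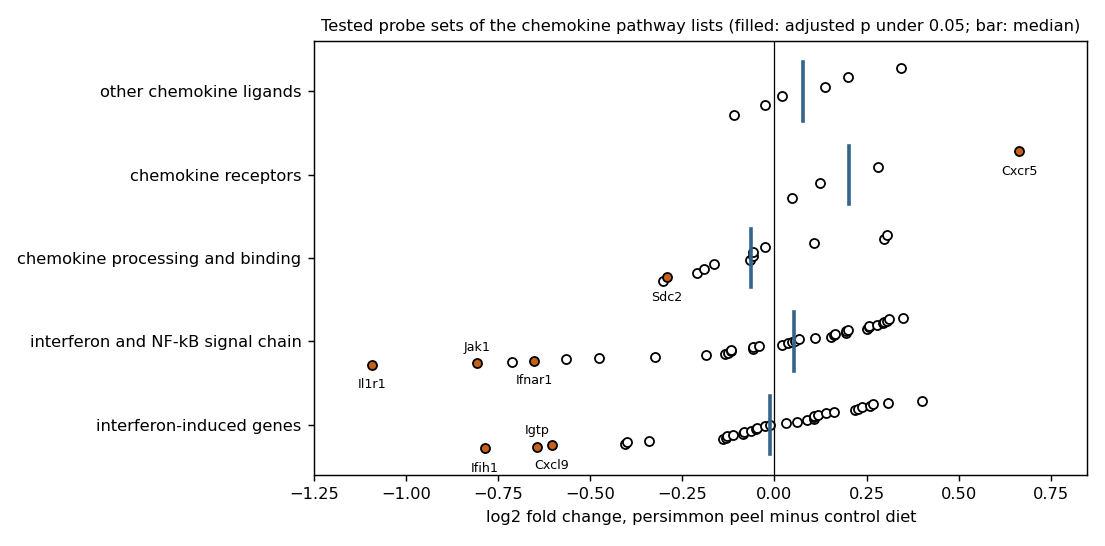
Log2 fold change, persimmon peel minus control diet (horizontal axis), of every tested probe set in 5 lists of chemokine pathway genes (rows), with filled points for sets called at an adjusted p under 0.05 and a blue bar for the median of the row. The medians lie between -0.06 and 0.20, and 1 called receptor set (Cxcr5) stands on the higher side.

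Markers of the cells that make or answer chemokines were measured on the same arrays. Of the T and NK cell markers, 16 of 17 genes were on the array, 12 of them only with dim sets, Cd3d, Cd3e, Cd3g and Cd8a among these. Their summed signal was 485 to 689 units in persimmon peel livers and 429 to 565 units in control livers, led by Il2rb (0.01) and Prf1 (0.35, adjusted p = 0.365). Kupffer cell and macrophage markers, led by C1qa and Clec4f, summed to 8344 to 12466 units on the persimmon peel diet and 7578 to 9467 units on the control diet, with 0 of 11 sets called. Stellate cell markers, led by Col3a1 and Reln, summed to 1006 to 1316 units on the persimmon peel diet and 1067 to 1547 units on the control diet, with 0 of 9 sets called. Endothelial markers, led by Lyve1 and Kdr, summed to 3791 to 4814 units on the persimmon peel diet and 4622 to 4901 units on the control diet, with 1 of 7 sets lower (Fcgr2b, -0.42, limma adjusted p = 0.009). Across the array, 4.95% of all tested sets were called in either direction and 4.53% were called lower.

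Hepatocyte markers, led by Hp and Serpina1, summed to 98163 to 105798 units on the persimmon peel diet and 107173 to 113080 units on the control diet, without overlap. Their mean log2 level differed by -0.11 (exact permutation test, two-sided p = 0.0286, and 0.257 adjusted over 9 marker lists). Lower calls were made in 2 of 17 tested sets (Cps1, -0.55, and Tat, -0.54), against 4.53% of all tested sets. Of B and plasma cell markers 2 sets were tested, both of Jchain, and Ms4a1 was dim. Of neutrophil and monocyte markers 1 set was tested (Ly6c, with S100a9 dim), and of cholangiocyte markers 1 (Epcam, with Krt19 dim). None of these sets was called. No dendritic cell set was tested, since all 4 genes on the array were dim (Itgax and Batf3 the brightest), and the sums of these 4 lists overlapped between the diets. No marker was listed at 0. The part of these cells in the chemokine values was not tested.

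Over the 8 arrays, the genes whose log2 signal followed each chemokine most closely were listed as a description. They were Snx9 (Pearson r = 0.971) and St3gal6 (0.968) for the brighter Cxcl9 set, Tmco1 (0.986) and Fam135a (0.974) for Cxcl10, Fam117a (0.947) and Dtnbp1 (0.936) for Cxcl11, and Pecr (0.986) and Tp53inp2 (0.985) for the brightest Cxcl12 set. For Ccl5 they were Stat2 (0.992) and Mpdu1 (0.985), for Ccl4 Egfl7 (0.950) and Mtor (0.941), for Cxcl1 Trim26 (0.919) and Ift140 (0.916), and for Cxcl16 Hcfc2 (0.965) and Otud7b (0.956). These were picked as the highest values over the tested sets, on 8 points that share diet and RNA quality. The 2 Cxcl9 sets followed each other with r = 0.92 over the 8 arrays and r = 0.54 after the mean of each diet was taken out, and the dimmest and brightest Cxcl12 sets with r = 0.29 and 0.08.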

How the data were processed

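Liver RNA was measured on 1-colour Affymetrix arrays. The authors deposited linear signal intensity values of 31099 probe sets, made with MAS5 per the submitters' processing notes, whose scaling target and detection calls were not part of the material analysed here. Gene symbols came from the platform annotation, brought up to date through RefSeq gene numbers. Diets were taken from the array titles, where numbers name the replicates, and p-values measure the spread between these arrays. No sequencing depth exists, so the number of arrays limits the precision.

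From the deposited intensities, log2 values with no pseudocount were fitted with limma 3.58.1 (R 4.3.3, using lmFit, then eBayes with its trend option), taking the persimmon peel diet minus the control diet. The 57 control sets and the dimmest 50% of the others by mean log2 value were left out, which kept 15521 sets with a mean of at least 34.4 units. Calls were made at a Benjamini-Hochberg adjusted p under 0.05. On data simulated for this comparison with 15521 sets, the fit recovered 30 of 50 sets changed 1.5-fold, 45 of 50 changed 2-fold and 4 of 50 changed 1.25-fold. Beside each of these counts, 5 unchanged sets were called. Single values per array were compared with an exact permutation test.

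The members, the lists and the beta-actin middle to 3' ratio were chosen with earlier results of these data known. By rule, every member set was named, with the called genes of each pathway list or the 2 with the smallest p, the 2 brightest genes of each marker list and the 2 sets most like each member. Ccl6, Ccl9, Cxcr3, Cxcr4 and the dim T cell genes were named for their role after their values were seen. The settings varied were a pseudocount of 16, median centring, quantile normalization, no filter, the upper 30% by signal, no trend, the replicate block, each array left out, persimmon peel arrays 1 and 3 left out, and the beta-actin ratio as a covariate.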

Additional observations from a re-analysis of the deposited data

Results flagged for a closer look

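The brighter Cxcl9 set in persimmon peel liver 3, at 111 units, stood apart from the other 3 livers of that diet, which lay between 87.8 and 91.4 units. Its gap to the nearest of them was 0.833 of the range of the group, past Dixon's 95% limit for 4 samples. Chance gives such a value in about 1 of 20 groups, and 24 groups were looked at. Without this liver the log2 fold change of the set was -0.69, and it kept its call.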

How the results depend on the processing

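Across the array 703 sets were lower and 66 higher (91.4% of calls lower), against 597 and 271 (68.8% lower) after quantile normalization. With no filter 441 were lower and 26 higher, and higher sets numbered 41 in the upper 30% by signal and 33 with no trend. Without persimmon peel arrays 1 and 3 there were 75 lower and 1 higher, and with the beta-actin covariate 0 and 0. Leaving out 1 array gave 295 to 942 lower and 12 to 267 higher sets, with the fewest lower sets without control replicate 4 (295), persimmon peel replicate 1 (336), control replicate 1 (403) and persimmon peel replicate 4 (453), and the most higher sets without persimmon peel replicate 2 (267). Member sets called lower numbered 1 to 2 with 1 array left out, 1 without persimmon peel arrays 1 and 3 and 0 with the covariate, and member sets called higher were 0 in each setting run.

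The brighter Cxcl9 set ranged from -0.69 to -0.56 with 1 array left out, was -0.70 without persimmon peel arrays 1 and 3 and -0.72 with the covariate, and did not pass in the last 2. The dimmer Cxcl9 set passed under median centring (-0.42, adjusted p = 0.0468). The dimmest Cxcl12 set was -0.75 with the covariate, without a call, and -0.83 to -0.70 with 1 array left out. Sign changes of sets that were not called were 0.0037 for the brightest Cxcl12 set under quantile normalization, 0.0099 for the middle set without control replicate 4 (-0.11 to 0.0099 with 1 array left out) and -0.39 for Cxcl16 with the covariate, and the called Igtp set gave 0.079 with the covariate. The cause was not tested.

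Same-numbered livers of the 2 diets did not deviate together (r from -0.08 to 0.05, with 1 of 4 closest to its own number). With the replicate block the dimmest Cxcl12 set stayed at -0.78 (adjusted p = 0.00417) and the brighter Cxcl9 set at -0.61 (adjusted p = 0.0221), and 596 sets were lower and 60 higher. Cxcl10 and Cxcl1, with geometric mean signals of 47.5 and 51.1 units over all arrays, and the dim Ccl2 are limited by their low signal.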
